A study of Homo sapiens with 18 samples.

Results

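Human umbilical vein endothelial cells (HUVEC) were kept for 3 days with extracellular vesicles that JinB8 T cells, a CD47-deficient line derived from Jurkat leukaemia cells, had released and that were captured through MHC class 1. Their RNA was compared with that of HUVEC kept with IgG beads carrying no vesicles. The comparison rests on 6 of the 18 arrays of the study, 3 with JinB8 MHC1+ vesicles and 3 with IgG beads, chosen by the treatment in the sample labels. The other 12 arrays are 3 each of untreated HUVEC, HUVEC with JinB8 CD63+ vesicles, with Jurkat MHC1+ vesicles and with Jurkat CD63+ vesicles. The labels give no day for the untreated cells. Jurkat cells carry CD47. The recipient HUVEC are the same in all 6 groups and carry CD47 too, so the deficiency lies in the vesicle donor only. According to the protocol in the labels, conditioned media from triplicate flasks of each donor line were pooled before the vesicles were purified, and no label says that the 3 arrays of a group come from separate vesicle preparations or cultures. The p-values therefore measure the spread between arrays of a group, pooled over all groups of a fit, which may be technical.

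Small nucleolar RNAs are short RNAs that guide enzymes to ribosomal and spliceosomal RNA. H/ACA RNAs direct pseudouridylation and C/D RNAs direct ribose methylation, and their relatives in Cajal bodies do the same for spliceosomal RNA. In human cells most of them are cut out of introns of host genes, many of which encode ribosomal proteins or translation factors, so that host messenger RNA and small RNA come from a single transcript but are afterwards processed and degraded separately. CD47 is a membrane receptor of thrombospondin 1 that lowers nitric oxide signalling in endothelium, and MHC class 1 and CD63 are surface proteins used to separate vesicle subsets.

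All levels are log2 RMA signals (the normalized array values that were deposited), and differences are JinB8 MHC1+ minus IgG beads on that scale, where 1 is a doubling, given with the standard error of the limma fit. The 3 JinB8 MHC1+ arrays were close to each other, with a lowest correlation of 0.994 over probe sets. Their medians over all probe sets, 4.86, 4.89 and 4.87, were the lowest of all arrays, the others lying at 4.90 to 5.31. Their standard deviations were 2.21, 2.24 and 2.25, beside at most 2.22 in the others. What part this has in the shares of genes above or below all other arrays was not tested. Bead replicate 3 was discordant. It correlated with the other arrays at a median of 0.636, its mean endothelial marker level was 6.37 against 8.47 and 8.42 in bead replicates 1 and 2, and untreated replicate 3 was similar to it, at a median correlation of 0.649. Counts of called genes are therefore given in all 18 arrays and in the 16 arrays without these 2 controls. A difference of a single gene given once is that of the 16 arrays. The endothelial markers averaged 8.31 to 8.36 with JinB8 MHC1+ vesicles. T cell markers, whose RNA vesicles could carry, averaged 4.05 to 4.10 there and 4.08, 4.24 and 5.19 with beads, and 0 of 19 passed the threshold in either fit.

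With JinB8 MHC1+ vesicles, many small nucleolar, Cajal body and vault RNAs were higher than with beads. In the 18 arrays 8 of 18417 genes rose and 0 fell at an adjusted p under 0.05 (percent called 0.0434%), with 928 at an unadjusted p under 0.05. In the 16 arrays 36 rose and 3 fell (0.195% and 0.0163%), all 8 among them. Of the 36, 26 were small nucleolar or Cajal body RNAs (14 H/ACA, 11 C/D and SCARNA4), 6 were other non-coding RNAs and 4 encoded proteins. The 3 genes that fell encode proteins of mitosis. With bead replicate 3 alone left out and the discordant untreated array kept, 6 genes rose, which were SNORA38B, SNORA68, SNORD104, SNORD38A, SNORD38B and VTRNA1-1.

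SNORA38B, an H/ACA RNA, was at 8.62, 8.71 and 8.53 with JinB8 MHC1+ vesicles and at 6.52, 6.32 and 5.93 with beads. The other 12 arrays lay between 5.99 and 6.87, so that all 3 arrays of this vesicle group were above every other array. It rose by 2.36 ± 0.20 in the 18 arrays (limma adjusted p = 0.00017) and by 2.20 ± 0.18 in the 16 (adjusted p = 6.6e-05). It was called with each of the 6 arrays left out in turn, at 2.20 to 2.50.

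SNORA62, another H/ACA RNA, was at 9.38, 8.43 and 8.28 with the vesicles and at 6.44, 6.10 and 5.17 with beads. It rose by 2.80 ± 0.44 in the 18 arrays (limma adjusted p = 0.036) and by 2.43 ± 0.40 in the 16 (adjusted p = 0.019). The groups did not overlap, and vesicle replicate 1 was above the other two. SNORA65 was more even, at 8.69, 8.90 and 8.69 against 6.95, 6.40 and 5.60, and rose by 2.44 ± 0.35 (adjusted p = 0.017) and 2.08 ± 0.30 (adjusted p = 0.0061). SNORA68 was at 8.68, 8.64 and 8.23 against 7.18, 7.15 and 6.61, and rose by 1.53 ± 0.22 (adjusted p = 0.017) and 1.35 ± 0.19 (adjusted p = 0.0061).

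Of the C/D RNAs, SNORD38B and SNORD38A are near-identical copies, and their probe sets may share signal. SNORD38B was at 6.83, 6.68 and 6.41 against 4.56, 4.05 and 3.26 with beads and rose by 2.69 ± 0.36 in the 18 arrays (limma adjusted p = 0.013) and by 2.34 ± 0.32 in the 16 (adjusted p = 0.0046). SNORD38A was at 5.83, 5.90 and 5.26 against 4.26, 4.21 and 4.55 and rose by 1.32 ± 0.20 (adjusted p = 0.03) and 1.43 ± 0.19 (adjusted p = 0.0046). SNORD104 was at 8.62, 8.62 and 8.30 against 7.05, 6.75 and 6.10, and rose by 1.88 ± 0.23 (adjusted p = 0.009) and 1.61 ± 0.18 (adjusted p = 0.0015). In all 3 the vesicle arrays were above the beads without overlap.

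VTRNA1-1, an RNA of the vault ribonucleoprotein particle, was at 6.04, 6.06 and 6.11 with the vesicles and at 3.72, 3.52 and 4.18 with beads. Apart from Jurkat CD63+ replicate 2, at 5.29, no other array was above 4.41. It rose by 2.26 ± 0.33 in the 18 arrays (limma adjusted p = 0.017) and by 2.45 ± 0.33 in the 16 (adjusted p = 0.0046).

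**Figure D1:**
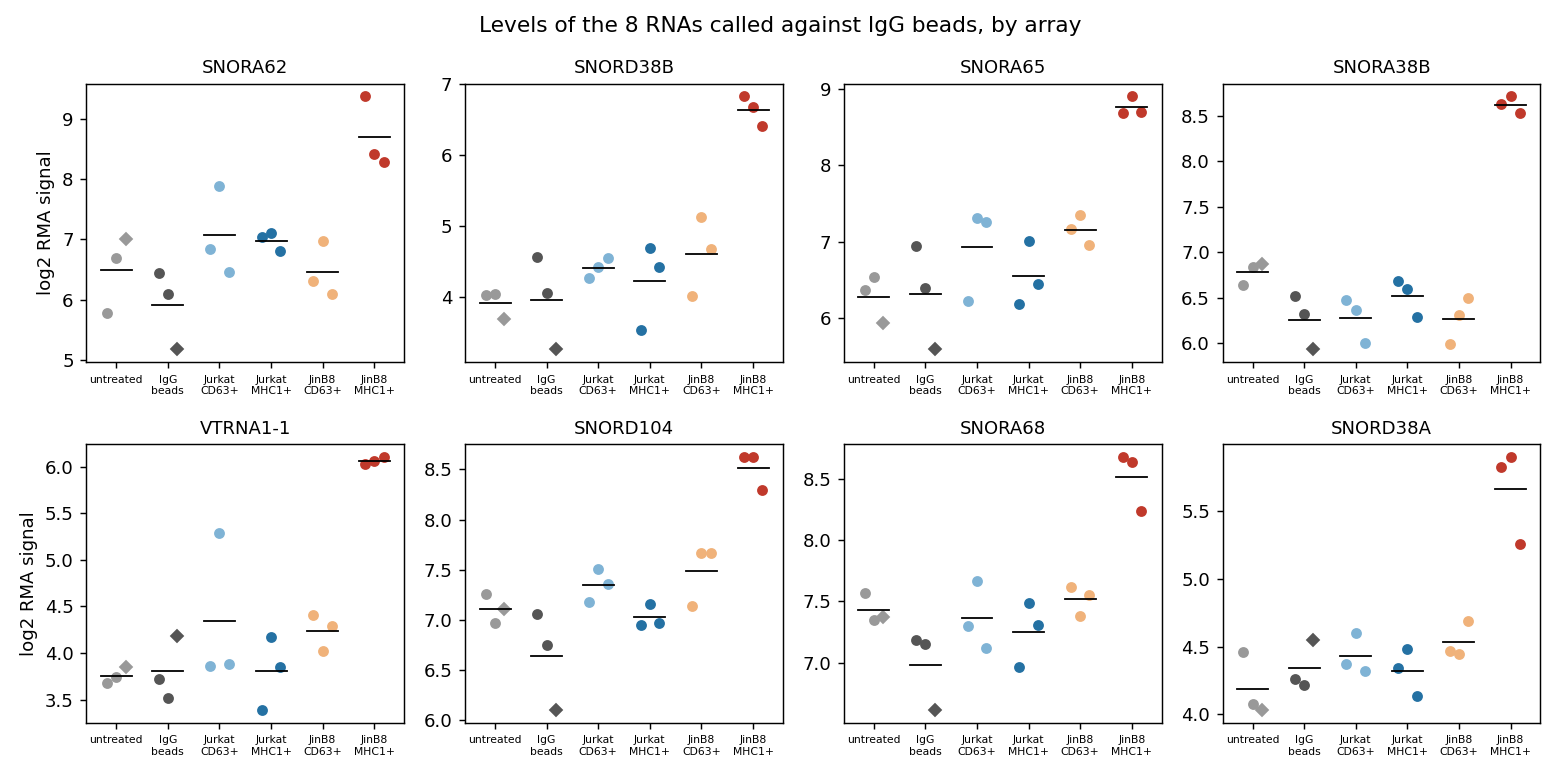
Log2 RMA signal (vertical axis, not starting at 0) of the 8 RNAs called in the 18 arrays, for each of the 6 groups. Each point is 1 array, bars are group means and diamonds mark the 2 discordant controls; for each RNA the 3 JinB8 MHC1+ arrays are above all 15 others, for SNORA38B at 8.53 to 8.71 against at most 6.87.

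The wider class moved in the same direction. Of the 192 small nucleolar and Cajal body RNAs measured, 7 rose in the 18 arrays and 26 in the 16, and 0 fell in either. The median difference over all 192 was 0.75 and 0.54, beside -0.09 and -0.02 over all genes. In 111 of them (57.8%) all 3 vesicle arrays were above all 3 bead arrays, beside 9.88% of all genes, and 77 (40.1%) were above all 15 other arrays, beside 2.57% of all genes. The mean of the 192 was 6.03, 6.05 and 5.97 in the 3 vesicle arrays and between 4.74 and 5.54 in the other 15, so these 3 arrays formed the upper end without overlap.

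The 61 H/ACA RNAs had a median of 0.83 in the 18 arrays and 0.93 in the 16, with 4 and 14 called higher. In the 16 arrays the called members beside those above were SNORA3A (1.98 ± 0.29, limma adjusted p = 0.007), SNORA50A (1.76 ± 0.27, adjusted p = 0.01), SNORA46, SNORA37, SNORA14A, SNORA13, SNORA23, SNORA71A, SNORA27 and SNORA52. SNORA23 was the brightest of these, at 11.62, 11.69 and 11.61 against 10.29, 10.26 and 8.17 with beads, a difference of 1.36 ± 0.26 (adjusted p = 0.043). SNORA13 was dim, at 6.37, 6.05 and 6.02 against 4.82, 4.74 and 4.71, and rose by 1.37 ± 0.25 (adjusted p = 0.034).

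The 69 C/D RNAs outside the imprinted clusters had a median of 1.17 in the 18 arrays and 0.88 in the 16, with 3 and 11 called higher. Beside those above, the 16 arrays called SNORD63, SNORD35A, SNORD59A, SNORD42A, SNORD79, SNORD1B, SNORD37 and SNORD102. SNORD42A had the smallest adjusted p of these, at 8.12, 8.21 and 8.03 against 6.89, 6.97 and 6.65 (1.19 ± 0.14 in the 16 arrays, limma adjusted p = 0.0015). SNORD102 had the smallest difference, 0.93 ± 0.16 (adjusted p = 0.022). The 16 Cajal body RNAs had a median of 0.93 and 0.56, all 16 were positive in both fits, and SCARNA4 rose in the 16 arrays (1.64 ± 0.29, adjusted p = 0.026).

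The imprinted C/D RNAs of 14q32 and 15q11, which are made from long non-coding transcripts and are known best from brain, are described apart. Their 46 members had a median of -0.06 and 0.06, 0 were called in either fit, and 2 (4.35%) were above all 15 other arrays, beside 2.57% of all genes. Most were dim, with a median level of 3.17 in the concordant bead arrays beside 5.39 for H/ACA and 5.41 for the other C/D RNAs. Among the 146 small RNAs outside these clusters, the dimmer 73 had a median difference of 0.44 and the brighter 73 one of 1.07 in the 16 arrays, so the difference was smaller where the signal was low. Some imprinted members were bright. SNORD116-14, SNORD116-15, SNORD116-20 and SNORD116-24 lay at 9.39 to 11.04 in the concordant bead arrays, and they differed by 0.23, 0.19, 0.32 and 0.34 in the 16 arrays (1.03, 0.75, 1.01 and 0.86 in the 18), with 0 called. Small differences at bright signals were not particular to these clusters. Outside them SNORD13, SNORD33, SNORD13P3, SNORD95, SNORD32A and SNORA23, at 12.48 down to 10.27, differed by 0.28, 0.22, 0.15, 0.73, 0.62 and 1.365. The imprinted members above all 15 other arrays were SNORD114-3 (level 5.82, difference 1.03, 1.35 in the 18 arrays) and SNORD116-29 (4.49 and 0.39).

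**Figure D2:**
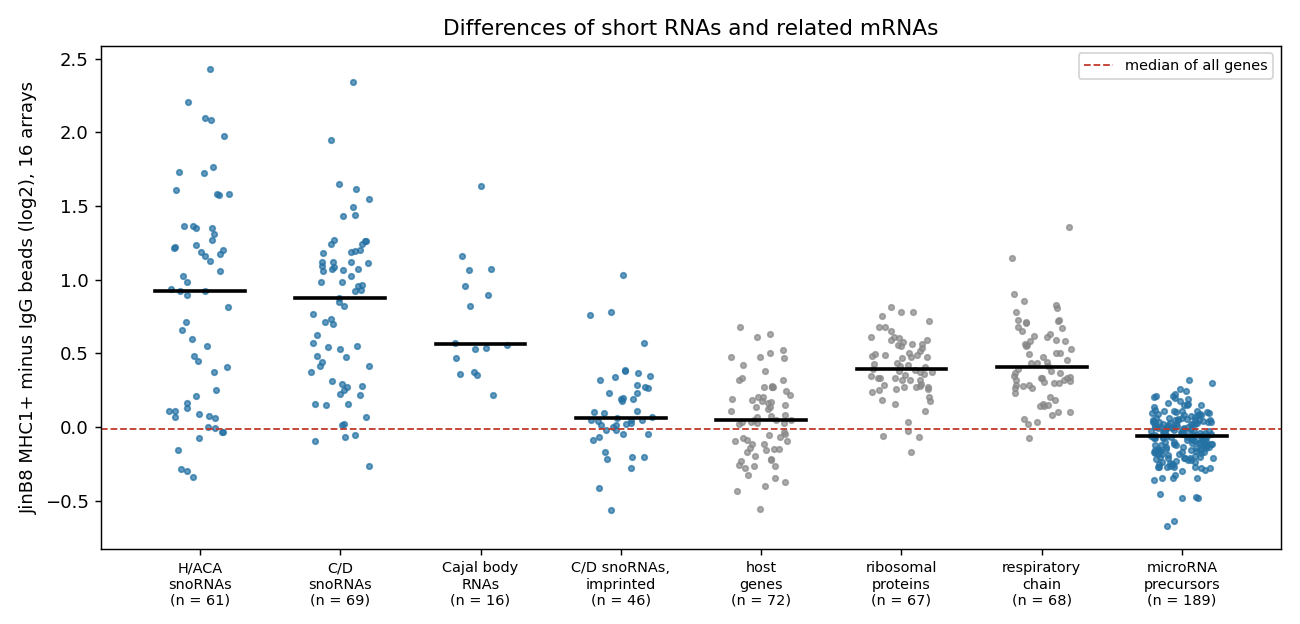
JinB8 MHC1+ minus IgG beads on the log2 scale in the 16 arrays (vertical axis) for short RNAs (blue) and messenger or host RNAs (grey). Each point is 1 gene, bars are medians and the dashed line is the median of all genes, -0.02; H/ACA and C/D RNAs have medians of 0.93 and 0.88, imprinted C/D RNAs 0.06 and microRNA precursors -0.06.

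The genes that hold the small RNAs differed little between vesicles and beads in the 16 arrays. A measured host was found by position for 94 of the small RNAs, in 72 genes, and 0 of these hosts were called in the 18 or the 16 arrays. The median host difference was 0.05 in the 16 arrays. For 81 of the 94 small RNAs the difference, taken with its sign, was above that of their host. Of the 94, the 18 in ribosomal protein genes had a median of 1.03 beside 0.30 over their hosts. The other 76 had a median of 0.55 beside 0.02 over theirs. Over all 146 small RNAs outside the imprinted clusters, which include those without a measured host, it was 0.89. The 15 measured hosts of called small RNAs ranged from -0.22 to 0.68 with a median of 0.14. In the 18 arrays all measured hosts had a median of 0.69 and the 146 small RNAs one of 1.01. The small RNAs in ribosomal protein genes had a median of 1.295 beside 1.07 over their hosts. Those in other measured hosts had 0.76 beside 0.63. The low bead replicate 3 enters all of these.

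NOL11, a ribosome synthesis factor that holds SNORA38B, was at 6.67, 7.17 and 6.96 with the vesicles and 6.97, 6.75 and 5.64 with beads, a difference of 0.07 ± 0.22 in the 16 arrays beside 2.20 for the small RNA, and of 0.48 ± 0.46 beside 2.36 in the 18. CNOT1, the scaffold of the CCR4-NOT deadenylase, holds SNORA46 and SNORA50A. It was at 9.41, 9.53 and 9.47 against 9.70, 9.68 and 4.78, which is -0.22 ± 0.22 in the 16 arrays and 1.42 ± 1.20 in the 18, where bead replicate 3 sets the sign. SNORA46 and SNORA50A were at 1.58 and 1.76 in the 16 arrays and at 1.63 and 2.64 in the 18.

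HSPA9, a mitochondrial chaperone that holds SNORD63, differed by 0.05 ± 0.20 in the 16 arrays beside 1.65 for the small RNA, but by 1.53 ± 1.02 beside 1.98 in the 18. MBD2, a methyl-DNA binding protein that holds SNORA37, was at -0.17 ± 0.19 beside 1.58, and at 0.64 ± 0.68 beside 2.07 in the 18. Ribosomal protein hosts were somewhat higher. RPL27A, the host of SNORA3A, was at 0.68 ± 0.27 (limma adjusted p = 0.80) beside 1.98, and RPL12, the host of SNORA65, at 0.38 ± 0.13 (adjusted p = 0.61) beside 2.08. In the 18 arrays RPL27A was at 1.22 ± 0.85 beside 2.33 and RPL12 at 1.08 ± 0.66 beside 2.44. Over the 18 small RNAs in measured ribosomal protein genes the median was 1.03 in the 16 arrays, and over the 76 in other measured hosts it was 0.55. RPSA, RPL13A, RPL21 and GAS5, which hold others of the called RNAs, were not measured as genes of a single symbol.

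Small RNAs of 1 host lay far apart in some hosts and close together in others, and their differences from each other were not tested. These hosts were picked after their values were seen, and the values are those of the 16 arrays. In NCL, which encodes nucleolin and differed by -0.37 ± 0.14, the 3 small RNAs SNORA75, SNORD20 and SNORD82 ranged from -0.09 to 1.73. In RABGGTB (0.03 ± 0.46) SNORD45A, SNORD45B and SNORD45C ranged from 0.01 to 1.12. None of these 6 was called. In ATP5F1B, which encodes a subunit of ATP synthase, SNORD59A and SNORD59B were at 1.26 and 1.27, and in EEF1B2, a translation elongation factor gene, SNORA41 and SNORD51 lay at 0.45 to 0.55. In RPSA, SNORA6 was at 1.03 ± 0.28 in the 16 arrays (limma adjusted p = 0.32) beside the called SNORA62.

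**Figure D3:**
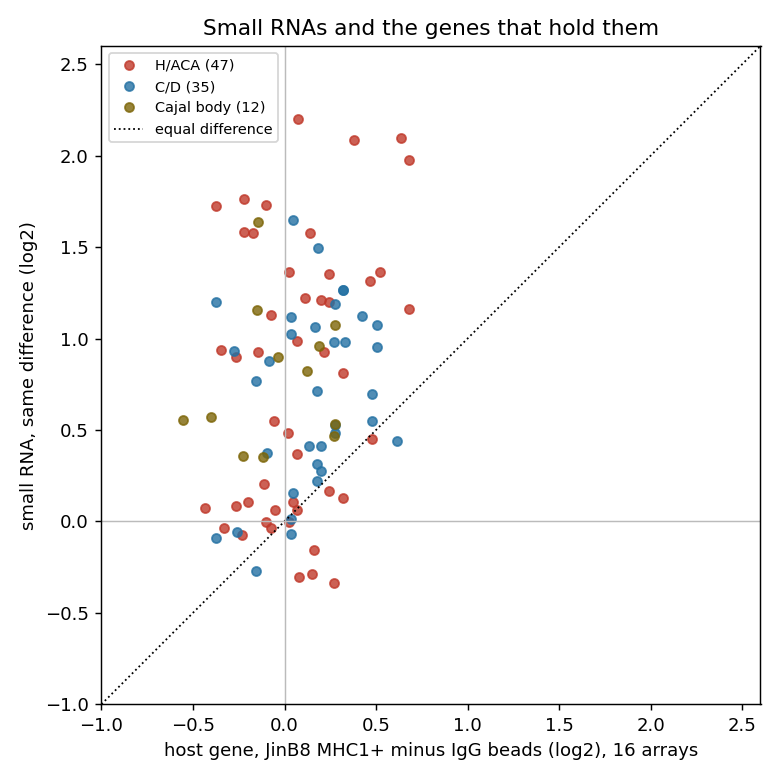
Difference of 94 small RNAs (vertical axis) against that of the gene that holds each (horizontal axis), both JinB8 MHC1+ minus IgG beads on the log2 scale in the 16 arrays. Each point is 1 small RNA, colours give the class and the dotted line marks equal differences; 81 of the 94 points are above it, and hosts span -0.55 to 0.68.

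The proteins that build small nucleolar particles had a median of 0.004 over 20 measured genes in the 16 arrays (0.48 in the 18), and 0 were called. NOP10, an H/ACA core protein, was at 0.70 ± 0.26 (limma adjusted p = 0.71), and DKC1, the pseudouridine synthase, at -0.09 ± 0.21 in the 16 arrays (0.51 ± 0.44 in the 18). Genes of the nuclear exosome and of 3′ trimming, which mature and degrade such RNAs, had a median of 0.07 over 18 genes (0.65 in the 18 arrays), and RNA polymerase III and its factors 0.002 over 27 (0.37 in the 18 arrays), again with 0 called in either fit.

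Of the 7 measured RNAs in the list of vault, Y, RNase and telomerase RNAs, 4 rose in the 16 arrays and 1 in the 18, with a median of 0.86 and 0.93. All 3 measured vault RNAs rose in the 16 arrays. VTRNA1-3 was at 5.66, 5.41 and 5.24 against 3.88, 4.27 and 5.38 (1.36 ± 0.23, limma adjusted p = 0.022). VTRNA1-2 was at 5.10, 5.63 and 4.97 against 3.97, 3.88 and 4.75 (1.30 ± 0.22, adjusted p = 0.018). Bead replicate 3 reached into the range of the vesicle arrays for VTRNA1-3, and the vault RNAs are similar in sequence, so their probe sets may share signal. RMRP, the RNA of the RNase MRP that cuts precursor ribosomal RNA, was at 12.50, 12.54 and 12.44 against 11.63, 11.63 and 10.12 and rose by 0.86 ± 0.15 in the 16 arrays (adjusted p = 0.02). RNU4ATAC, the U4atac RNA of the minor spliceosome, was at 11.74, 11.49 and 11.40 against 10.40, 10.26 and 8.26 (1.21 ± 0.21, adjusted p = 0.022). In both the vesicle arrays were above all beads.

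Not every short RNA followed. The telomerase RNA TERC was at 4.66, 4.48 and 4.44 against 4.60, 4.55 and 5.99, which is -0.05 ± 0.22 in the 16 arrays. RPPH1, the RNA of RNase P, was at 0.67 ± 0.37 (limma adjusted p = 0.999). The 15 spliceosomal RNAs had a median of 0.24, with RNU4ATAC as the 1 called. The 189 microRNA precursors had a median of -0.32 in the 18 arrays and -0.06 in the 16 and 0 were called, 8 (4.23%) being below all 15 other arrays beside 1.17% of all genes. MIR32 was at 3.85, 3.90 and 4.15 against 4.72, 4.56 and 4.35 (-0.67 ± 0.15, adjusted p = 0.10), and MIR320C1 at -0.64 ± 0.21 (adjusted p = 0.60). LIMD1-AS1, a long non-coding RNA antisense to LIMD1, was at 6.81, 6.71 and 6.61 against 5.27, 4.28 and 3.88 and rose by 1.93 ± 0.35 in the 16 arrays (adjusted p = 0.034). The labels do not say how RNA from its opposite strand is kept apart.

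Messenger RNAs of ribosomal and respiratory chain proteins were slightly higher, with 0 called. The 67 ribosomal protein genes had a median of 1.14 in the 18 arrays and 0.40 in the 16, and in 28 of them (41.8%) the vesicle arrays were above all 15 others, beside 2.57% of all genes. RPLP1 was at 11.43, 11.46 and 11.33 against 10.80, 10.45 and 9.26 (0.78 ± 0.20 in the 16 arrays, limma adjusted p = 0.25), and RPS16 was at 0.60 ± 0.16 (adjusted p = 0.30). The 68 respiratory chain and ATP synthase genes had a median of 0.80 and 0.40, with 19 (27.9%) above all others, beside the same 2.57%. COX7A2 was at 0.90 ± 0.21 (adjusted p = 0.16) and UQCRQ at 0.65 ± 0.16 (adjusted p = 0.23).

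Messenger RNAs of lipid synthesis made up most of the protein-coding rises. Cholesterol and fatty acid genes are switched on together by SREBP factors when sterol in the endoplasmic reticulum is low, and INSIG1 holds those factors back. INSIG1 was at 9.52, 9.99 and 9.74 with the vesicles and 8.10, 8.14 and 6.33 with beads, and rose by 1.63 ± 0.25 in the 16 arrays (limma adjusted p = 0.01). DHCR7, a reductase that completes cholesterol, was at 10.01, 10.12 and 9.83 against 8.97, 8.71 and 4.66 (1.14 ± 0.16, adjusted p = 0.0046). FADS2, a fatty acid desaturase, was at 10.62, 10.67 and 10.66 against 9.74, 9.67 and 5.56 (0.94 ± 0.13, adjusted p = 0.0058). In all 3 the vesicle arrays were above the beads, and in the 18 arrays none passed (adjusted p = 0.32 for INSIG1 and 0.46 for DHCR7 and FADS2), with bead replicate 3 the lowest bead array in each.

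In the cholesterol synthesis list 1 of 16 members was called in the 16 arrays, with a median of 0.95 and 15 positive (1.64 in the 18 arrays). MSMO1, a methyl sterol oxidase, was at 10.31, 10.75 and 10.55 against 8.99, 8.84 and 4.76 (1.62 ± 0.32, limma adjusted p = 0.062), and FDPS, which makes farnesyl diphosphate, at 0.99 ± 0.20 (adjusted p = 0.069). Of 12 fatty acid genes FADS2 alone was called (median 0.53, and 1.59 in the 18 arrays). SCD, the stearoyl-CoA desaturase, was at 1.20 ± 0.23 and FASN, the fatty acid synthase, at 0.85 ± 0.16 (adjusted p = 0.0504 for both). The list means lay at 8.10, 8.37 and 8.13 for cholesterol synthesis with the vesicles and at 7.29, 7.10 and 5.68 with beads. They were 7.94, 8.33 and 7.84 with JinB8 CD63+ vesicles, which overlaps the JinB8 MHC1+ arrays. With Jurkat CD63+ vesicles they were 7.89, 7.96 and 8.07, just below the JinB8 MHC1+ arrays, and with Jurkat MHC1+ vesicles 6.98, 7.74 and 7.88. STC1, a secreted glycoprotein hormone, was at 7.68, 7.84 and 7.49 against 6.53, 6.66 and 6.94 and rose by 1.08 ± 0.14 in the 16 arrays (adjusted p = 0.0046; 0.96 ± 0.18 and adjusted p = 0.11 in the 18).

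The promoters of INSIG1 and DHCR7 are shown because both genes rose and their windows hold the motif described here. That of FADS2, which rose too, was searched but is not printed. CCAAT (or ATTGG on the other strand, in capitals), the box bound by NF-Y, which works beside SREBP factors at many sterol genes, was found in the 250 bases before 33.0% of 27305 RefSeq promoters. INSIG1 has 1 match, 170 bases before its start, DHCR7 has 2, 94 and 48 before it, and FADS2 has none in its window. The box was not particular to genes that rose. The windows of ASPM, MKI67 and BUB1B, which fell and are printed further below without marking it, hold 4, 2 and 0. The sterol regulatory element core TCACNCCAC, found in 0.875% of promoters, was not in the windows of INSIG1, DHCR7 or FADS2. DHCR7 and FADS2 have 2 RefSeq starts each, and the start with the most CCAAT matches was taken. The shares over all promoters count 1 start per gene, chosen without regard to matches. The sequences are RefSeq's, build GRCh38.p14, 5′ to 3′ on the gene's strand, at chr7:155297678-155297877 (plus strand) and chr11:71448394-71448543 (minus strand).
INSIG1: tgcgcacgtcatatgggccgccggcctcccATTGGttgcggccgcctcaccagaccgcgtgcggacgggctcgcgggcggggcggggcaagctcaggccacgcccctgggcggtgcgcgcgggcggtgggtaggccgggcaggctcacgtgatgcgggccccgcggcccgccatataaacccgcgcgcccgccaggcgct
DHCR7: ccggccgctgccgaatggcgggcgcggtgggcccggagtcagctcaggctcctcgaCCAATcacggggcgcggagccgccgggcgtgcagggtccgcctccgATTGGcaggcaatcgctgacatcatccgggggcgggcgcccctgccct

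Genes of mitosis were lower with the vesicles than in the 2 concordant bead arrays. ASPM, a spindle pole protein, was at 5.30, 5.20 and 5.45 with the vesicles and 6.73, 6.54 and 4.66 with beads. MKI67, the Ki-67 antigen of cycling cells, was at 6.83, 6.55 and 6.67 against 7.95, 7.72 and 6.96. BUB1B, a kinase of the spindle checkpoint, was at 5.07, 5.10 and 5.08 against 6.31, 5.99 and 5.12. Bead replicate 3 lay below the vesicle arrays for ASPM and just above them for the other two.

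In the 16 arrays ASPM fell by 1.32 ± 0.21 (limma adjusted p = 0.015), MKI67 by 1.15 ± 0.19 (adjusted p = 0.018) and BUB1B by 1.07 ± 0.18 (adjusted p = 0.02). In the 18 arrays none was called, at -0.66 ± 0.46, -0.86 ± 0.44 and -0.72 ± 0.38, and with each of the 16 arrays centred on its median 0 genes fell. All 32 measured genes of the kinetochore, spindle and mitosis list were negative in the 16 arrays, with a median of -0.65, and in 26 (81.2%) the vesicle arrays were below both concordant bead arrays, beside 18.4% of all genes. In the 18 arrays the median was -0.26. CENPF, a kinetochore protein, was at -1.11 ± 0.22 (adjusted p = 0.056). DNA replication genes had a median of -0.08 over 27 and replication-dependent histones 0.11 over 60, with 0 called. The mean of the mitosis list was 5.58, 5.55 and 5.70 with the vesicles and 6.51, 6.05 and 4.98 with beads, and JinB8 CD63+ vesicles gave 5.52, 5.61 and 5.35.

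The promoters of the 3 genes that fell are shown for the element CHR, TTTGAA (or TTCAAA on the other strand, in capitals), through which the DREAM and MuvB complexes are known to time mitotic genes. It was found in the 250 bases before 13.6% of 27305 RefSeq promoters. ASPM has 1 match 113 bases before its start, MKI67 has 2 at 47 and 29, and BUB1B has 1 at 23. A match describes the letters and is not a shown binding site. The windows are chr1:197146670-197146819 (minus strand), chr10:128126424-128126573 (minus strand) and chr15:40160919-40161068 (plus strand).
ASPM: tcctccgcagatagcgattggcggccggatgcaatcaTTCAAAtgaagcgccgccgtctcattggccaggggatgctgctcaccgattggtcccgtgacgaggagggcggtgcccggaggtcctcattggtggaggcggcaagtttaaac
MKI67: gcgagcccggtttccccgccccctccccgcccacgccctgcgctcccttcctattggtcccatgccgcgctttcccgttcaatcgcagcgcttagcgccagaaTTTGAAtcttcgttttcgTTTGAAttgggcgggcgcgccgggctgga
BUB1B: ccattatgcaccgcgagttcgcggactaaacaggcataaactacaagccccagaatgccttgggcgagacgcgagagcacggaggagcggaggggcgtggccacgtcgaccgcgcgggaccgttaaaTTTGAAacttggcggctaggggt

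**Figure D4:**
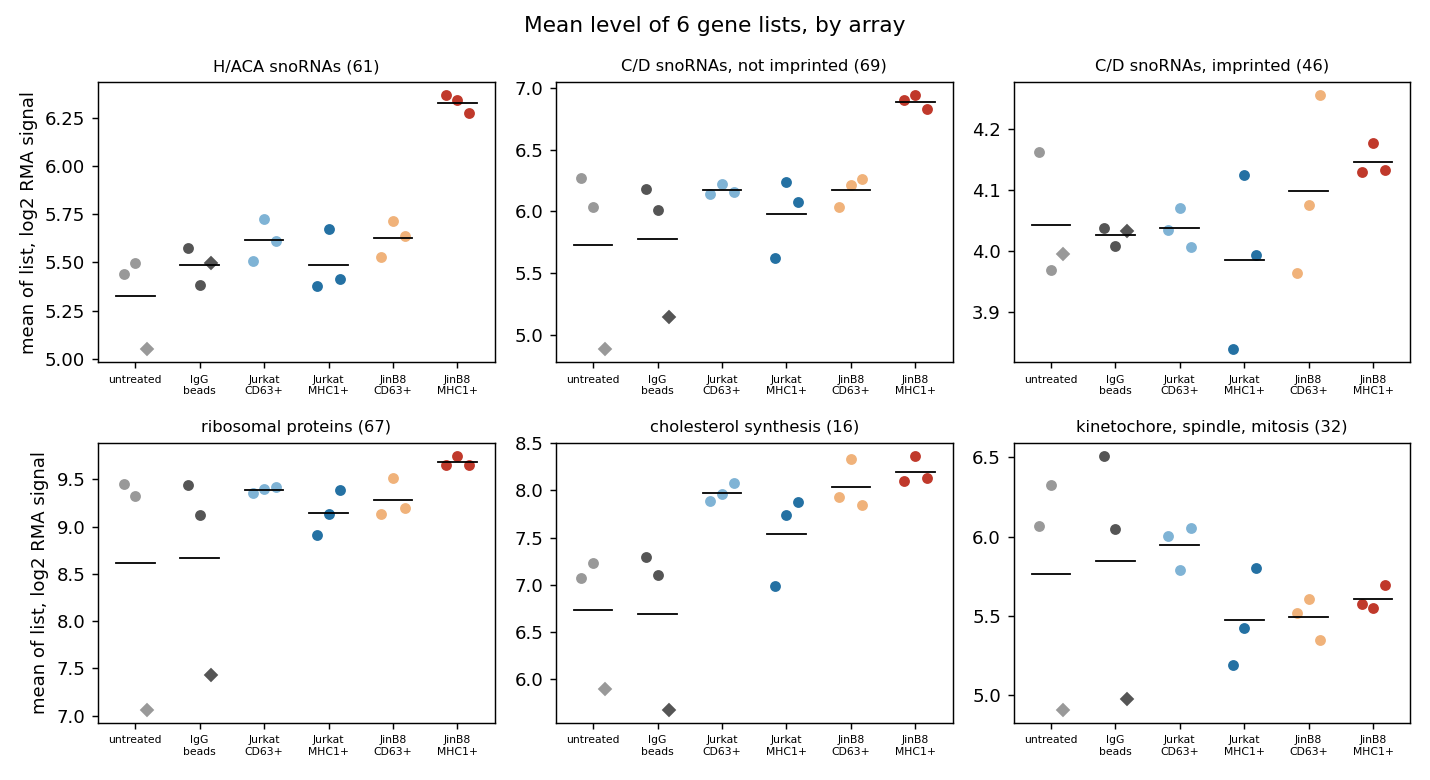
Mean log2 RMA signal of 6 gene lists (vertical axes, not starting at 0) in each array of the 6 groups. Points are arrays, bars are group means and diamonds mark the 2 discordant controls; the H/ACA means are 6.27 to 6.37 with JinB8 MHC1+ vesicles and at most 5.72 elsewhere, whereas cholesterol and mitosis means overlap those with JinB8 CD63+ vesicles.

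Short RNAs called against beads were also higher than with the other vesicle groups. No bead array enters these differences, but all arrays of a fit enter the spread they are tested against, so the counts of calls depend on the 2 discordant controls. Against JinB8 CD63+ vesicles, which come from the same donor line, SNORA38B was the 1 gene called in the 18 arrays (2.35 ± 0.20, limma adjusted p = 0.00018; percent called 0.00543%). In the 16 arrays 32 genes rose and 2 fell (0.174% and 0.0109%), 26 of the 32 being small nucleolar or Cajal body RNAs. VTRNA1-1 was 1.83 ± 0.29 higher there (adjusted p = 0.019).

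Against Jurkat MHC1+ vesicles, captured the same way from cells that carry CD47, 6 genes rose in the 18 arrays and 0 fell (0.0326%). They were SNORA38B (2.10 ± 0.20, limma adjusted p = 0.00081), SNORA65 (2.21 ± 0.35), SNORD38B (2.43 ± 0.36), SNORD38A (1.34 ± 0.20), SNORD104 (1.49 ± 0.23) and VTRNA1-1 (2.26 ± 0.33), the last 5 at adjusted p between 0.041 and 0.049. In the 16 arrays 70 rose and 1 fell (0.380% and 0.00543%), 53 of the 70 being small nucleolar or Cajal body RNAs. Jurkat MHC1+ replicate 1 was of intermediate quality, with a median correlation of 0.947, and without it in 15 arrays 58 genes were called, 49 of them such RNAs.

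Of the 26 small RNAs called against beads in the 16 arrays, 20 were also called higher against JinB8 CD63+, 25 against Jurkat MHC1+, 17 against Jurkat CD63+ and 22 against untreated cells. These comparisons share the JinB8 MHC1+ arrays. Against Jurkat CD63+ vesicles 1 gene rose in the 18 arrays and 21 in the 16 (0.00543% and 0.114%). Against untreated cells 10 rose in the 18 arrays (0.0543%), and in the 16 arrays 39 rose and 4 fell (0.212% and 0.0217%). Over the 26 the median difference was 1.21, 1.39, 1.19 and 1.42 in that order. The protein-coding genes behaved otherwise. Of INSIG1, DHCR7, FADS2 and STC1, 4 rose against untreated cells in the 16 arrays and 0 against any other vesicle group. STC1 was lower than with JinB8 CD63+ vesicles, where it was at 8.78, 8.84 and 8.72 (-1.10 ± 0.13, limma adjusted p = 0.0018). For INSIG1 that difference was 0.12 ± 0.22 (adjusted p = 0.76). ASPM, MKI67 and BUB1B differed from JinB8 CD63+ by -0.06, -0.05 and 0.10, with 0 called. From Jurkat MHC1+ they differed by -0.006, -0.34 and -0.03, and from Jurkat CD63+ by -0.61, -0.63 and -0.18, again with 0 called.

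**Figure D5:**
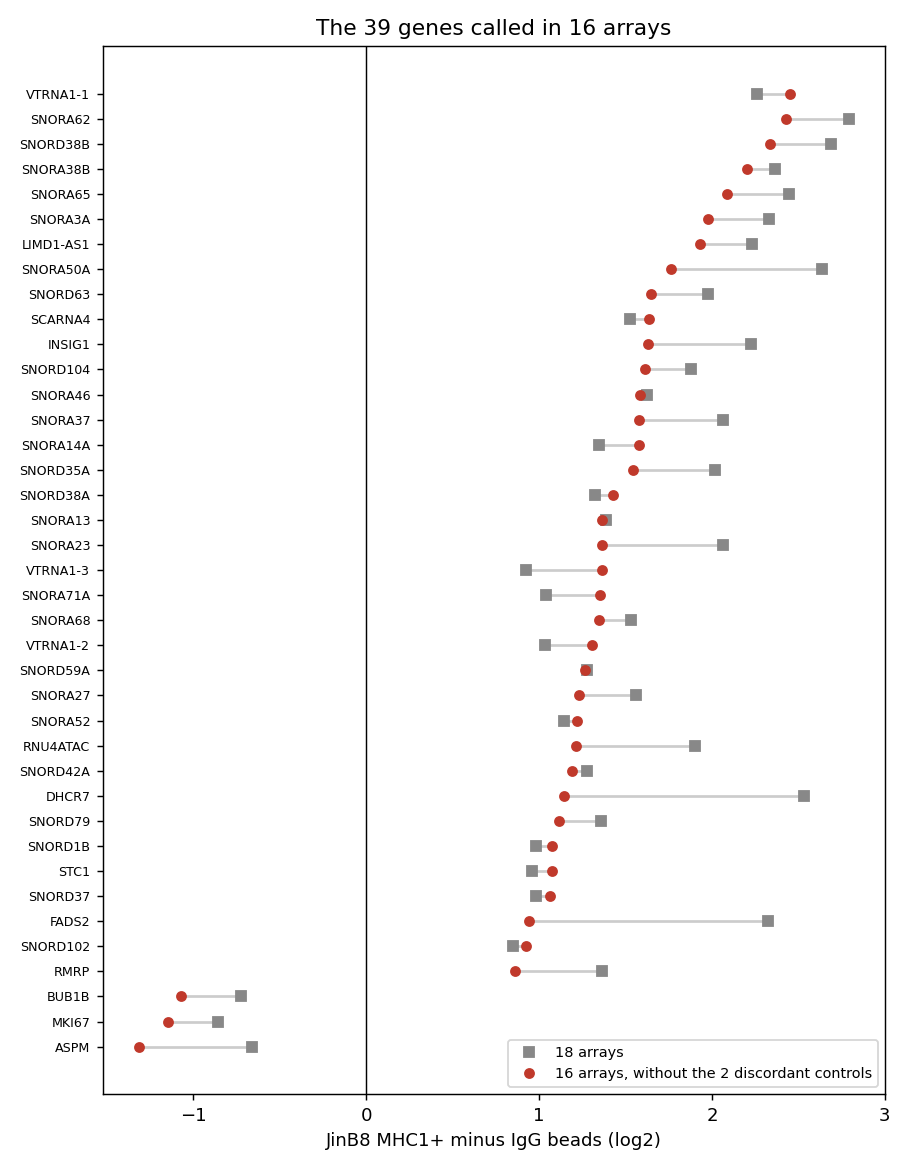
Differences (JinB8 MHC1+ minus IgG beads, log2, horizontal axis) of the 39 genes called in the 16 arrays, shown for the 16 arrays (circles) and for all 18 (squares). Of the 8 RNAs called in both fits, SNORA38B goes from 2.36 in the 18 arrays to 2.20 in the 16 and SNORA62 from 2.80 to 2.43. Of the genes called in the 16 only, STC1 goes from 0.96 to 1.08, DHCR7 from 2.54 to 1.14 and ASPM from -0.66 to -1.32.

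Chemokine and redox genes passed in single comparisons between vesicle groups in the 16 arrays, and none of the 3 named here passed in the 18. CCL2, which attracts monocytes, was at 11.70, 11.66 and 11.79 with JinB8 MHC1+ and 10.65, 11.11 and 10.76 with JinB8 CD63+ vesicles (0.88 ± 0.14 higher in the 16 arrays, limma adjusted p = 0.019). Against beads it was at 0.35 ± 0.16 (adjusted p = 0.93; 1.59 ± 0.92 in the 18 arrays). CCL20, which attracts CCR6-bearing lymphocytes, was at 6.66, 7.43 and 7.20 against 4.84, 5.31 and 5.74 with Jurkat MHC1+ vesicles (1.80 ± 0.31, adjusted p = 0.019, and 0.25 in the 18 arrays). Against beads it was at 1.43 ± 0.35 (adjusted p = 0.20; 1.68 ± 0.38 in the 18 arrays). TXN, thioredoxin, was 1.56 ± 0.27 higher than with Jurkat MHC1+ vesicles (adjusted p = 0.02, and 0.93 in the 18 arrays), where replicate 1 was the lowest at 8.44, and at 0.95 ± 0.31 against beads (adjusted p = 0.58; 1.67 ± 0.94 in the 18 arrays).

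The CD47 axis itself did not pass. CD47 was at 8.88, 9.10 and 9.13 with the vesicles and 8.93, 8.92 and 6.09 with beads (0.11 ± 0.39 in the 16 arrays, limma adjusted p = 0.999, and 1.06 ± 0.71 in the 18, adjusted p = 0.46). THBS1, its ligand, was at 13.19, 13.22 and 13.31 against 13.31, 13.19 and 8.92 (-0.01 ± 0.12, and 1.44 ± 0.93 in the 18 arrays). The nitric oxide synthase NOS3 was at -0.13 ± 0.14 (-0.09 ± 0.17 in the 18) and the VEGF receptor KDR at -0.11 ± 0.17 (1.55 ± 1.13 in the 18), and 0 of the 15 genes of this list were called (median -0.01, and 0.41 in the 18 arrays). CD63, one of the capture antigens, was at 0.40 ± 0.16 (adjusted p = 0.80; 1.19 ± 0.70 in the 18 arrays).

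The remaining lists held 0 called genes against beads in either fit, and their medians in the 16 arrays follow. Interferon-stimulated genes were at 0.01 (33 genes; 1.22 in the 18 arrays), antigen presentation at 0.09 (0.71 in the 18) and NF-kB-driven activation at 0.08 (0.51 in the 18). TGF-beta genes were at -0.11, collagens and matrix at -0.15, endothelial identity at -0.12 and angiogenesis and Notch genes at -0.11. These 4 lists had positive or near-zero medians in the 18 arrays (0.61, 0.59, 0.72 and 0.005), where bead replicate 3 was low. The unfolded protein response was at 0.04, hypoxia and glycolysis at 0.16, p53 targets at 0.14, NRF2 targets at 0.30, metallothioneins at 0.25 and vesicle biogenesis genes at 0.12. In the 18 arrays these 6 medians were 0.94, 0.60, 0.51, 1.504, 0.64 and 0.75, again with bead replicate 3 low. Fibroblast, monocyte and epithelial markers were at -0.02, -0.10 and -0.12, T cell markers at -0.08 and small RNA host genes without a protein at 0.42, and in the 18 arrays at -0.29, -0.29, -0.40, -0.47 and 0.81. In the sterol sensing list (median 0.30, and 0.68 in the 18) INSIG1 was the 1 called.

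RNA was isolated with Trizol and RNeasy per the protocol label but with a miRNA kit per the series design. Whether all groups were extracted alike, and what part extraction has in the differences of short RNAs, was not tested. No scan or extraction batch is given in the sources used here.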

How the data were processed

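Total RNA was labelled and measured on an Affymetrix whole-transcript array. The deposited values are log2 signals made by the authors with RMA in Affymetrix Expression Console, per the submitters' processing notes, where no versions are given. Background correction and quantile normalization in RMA were done before deposit, and a shift common to most probe sets would be removed by it. Of 33297 probe sets, 19460 had 1 gene symbol in GEO's platform annotation, 1754 several and 12083 none. For each symbol the probe set with the highest mean was kept, giving 18417 genes (769 had more than 1).

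Groups were taken from the treatment label. The labels JINB9 to JINB13 were read as JinB8, as the bracketed sample names say. limma 3.58.1 (R 4.3.3) was fitted with a mean per group over 18 arrays, and over 16 without bead replicate 3 and untreated replicate 3, with Benjamini-Hochberg adjustment over all genes, two-sided. The script was tested on simulated data. Array number limits the precision.

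The members and gene lists were chosen with earlier results of these data known. Named are the genes called in 18 arrays, the 20 largest rises and 10 largest falls in 16, up to 4 genes of each list by adjusted p in 16 arrays, hosts of named small RNAs and a few genes set by name. The other genes called in 16 arrays, 4 bright imprinted RNAs, the small RNAs sharing the hosts NCL, RABGGTB, ATP5F1B, EEF1B2 and RPSA, and CCL2, CCL20 and TXN where a list did not name them, were chosen after their values were seen. Hosts are RefSeq genes (GRCh38.p14) whose span holds the small RNA, strand not considered. Sequences of the small RNAs were not used here.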

Additional observations from a re-analysis of the deposited data

Results flagged for a closer look

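Effects of the vesicles that differed between vesicle groups, by the limma test of the difference itself in the 18 arrays, concern 6 RNAs. SNORA38B was 2.35 higher with JinB8 MHC1+ than with JinB8 CD63+ vesicles and 2.10 higher than with Jurkat MHC1+ vesicles. Against Jurkat MHC1+ vesicles SNORA65 was 2.21 higher, SNORD104 1.49, SNORD38A 1.34, SNORD38B 2.43 and VTRNA1-1 2.26, and of these 6 only SNORA38B was called with each of the 6 arrays of that comparison left out in turn. Among the 13837 probe sets without a single gene symbol, which enter no comparison above, 2 were called higher against beads when all 33297 probe sets were tested in the 18 arrays, and 14 in the 16 arrays.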

How the results depend on the processing

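The count of 8 genes in the 18 arrays fell to 0 when only the 6 arrays compared were fitted (278 genes at an unadjusted p under 0.05) and was 5 without the dimmer 50% of genes. It was 43 against untreated cells in 16 arrays and 9317 with array weights, whose estimation did not converge. With each array left out it ranged from 1 to 8, at 1 (SNORA38B) without JinB8 MHC1+ replicate 1 or 2, 2 without bead replicate 2 and 5 without JinB8 MHC1+ replicate 3. The count of 39 in the 16 arrays was 6 with untreated replicate 3 kept, 116 also without Jurkat MHC1+ replicate 1, 571 with array weights (not converged), 293 in only the 5 arrays compared and 21 without the dimmer genes. With each array left out it ranged from 1 (SNORA38B, without bead replicate 2) to 25, being 11 without bead replicate 1 and 23, 16 and 25 without JinB8 MHC1+ replicates 1, 2 and 3.

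Against JinB8 CD63+ the count of 1 became 34 in 16 arrays, 3 after quantile normalization again and 56 in only those groups, and ranged from 1 to 2 with arrays left out (2 without JinB8 CD63+ replicate 2). Against Jurkat MHC1+ the count of 6 became 71 in 16 arrays, 58 in 15 (an alternative chosen after seeing the data), 2 after quantile normalization again, 14 in only those groups and 1 without the dimmer genes, and ranged from 1 to 2 with each of its 6 arrays left out. Centring each array moved the median of all genes from -0.09 to 0.10 in the 18 arrays and left 10 calls, 0 of them lower.

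For 70 named genes, 13 of 700 alternative values changed sign, none of a called gene. Without bead replicate 3, with 17 or 16 arrays, CNOT1 was at -0.221, DKC1 at -0.093, KDR at -0.111, MBD2 at -0.172 and THBS1 at -0.007, the lowest values with any array left out, and the highest were 2.24, 0.916, 2.40, 1.05 and 2.19 in that order. Against untreated cells in 16 arrays CNOT1 was at -0.093 and MBD2 at -0.052, and with centred arrays NOS3 was at 0.103. No paired analysis was possible because the labels carry no replicate numbers shared between groups. The other values kept their sign: 598 kept their side of the threshold, 30 lost it and 59 gained it. Beyond the changes of fit, which the alternatives construct, the cause of these shifts was not tested.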
